A study of Rattus norvegicus with 6 samples.

Results

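The homeostatic markers of microglia examined here are P2ry12, P2ry13, Tmem119, Cx3cr1, Sall1, Csf1r, Gpr34, Olfml3 and Aif1. They were chosen by gene name, and all 9 were found among the 23139 genes listed. Primary microglia from the cortices of Wistar rats at postnatal day 1 were grown in mixed culture for 10 days, shaken off and selected with anti-CD11b/c beads. All cells received lipopolysaccharide (LPS, a bacterial membrane component that activates microglia) at 100 ng/ml, together with either the solvent DMSO (LPS) or 50 µM siponimod, a modulator of sphingosine 1-phosphate receptors (LPS/siponimod). Each condition had 3 biological replicates, sequenced as mRNA to between 38080379 and 46643859 counts per library. Cells without LPS were not analysed here, and no value describes resting microglia. Since these were bulk cultures, fewer cells of a type and less RNA per cell cannot be told apart.

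Microglia in the healthy brain express a set of surface receptors and a transcription factor, only some of which help to distinguish them from other macrophages. The levels of many of these genes are known to fall when microglia are activated or placed in culture. P2RY12 and P2RY13 are Gi-coupled receptors for ADP, and P2RY12 guides microglial processes towards sites of injury. GPR34 is a receptor for lysophosphatidylserine, CX3CR1 binds the neuronal chemokine fractalkine, and CSF1R binds the survival factors CSF1 and interleukin-34. TMEM119 is a membrane protein used to tell microglia from infiltrating macrophages, and OLFML3 is a secreted matrix protein. SALL1 is a zinc finger transcription factor of microglial identity, and Aif1 encodes Iba1, the calcium-binding protein commonly stained to identify microglia.

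In the LPS/siponimod libraries Gpr34, Cx3cr1 and Aif1 were lower than with LPS, at fitted folds of 13.4, 12.5 and 3.69 that varied with the libraries included, and their libraries did not overlap between conditions. Sall1 went the other way and was 1.91-fold higher. P2ry12, P2ry13, Csf1r and Tmem119 were lower with LPS/siponimod whichever of the 3 replicate numbers was compared but did not pass the test, and Olfml3 had too few counts to be tested. The 11977 genes with enough counts were tested by edgeR's quasi-likelihood method, and a gene counts as called where its fold change reached 1.5 with an adjusted p no larger than 0.05. By this rule 3 of the 9 markers were called lower, where 11.7% of all genes tested were, and 1 was called higher, where 13.6% of all genes were. The same 4 were those without overlap between conditions, which held for 24.0% of all genes in the lower and 25.3% in the higher direction. With the replicate number added as a block, 6 were called lower (16.4% of all genes) and 0 higher (17.7%). P2ry12, P2ry13 and Csf1r were gained there and Sall1 was lost. Including Olfml3, 7 of the 9 were lower in all 3 pairs, which held for 35.4% of all genes tested. The log2 FC was negative for 7 of the 8 tested, and for 51.2% of all genes. Of the 9, 8 passed the filter on low counts, and Cx3cr1 passed it only through the LPS libraries. The 8 had a median log2 FC of -2.28, beside -0.02 for all genes tested.

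The stretches upstream of Gpr34 and Cx3cr1 are shown because these genes had the largest fitted changes among the markers. They were taken from RefSeq (build GRCr8, another build than the mRatBN7.2 to which the reads were mapped), whose promoter table held 5 of the 9 markers. Both lie on the minus strand and give the 250 bases before the start of the gene in that table, at chrX:11785837-11786086 for Gpr34 and at chr8:128677067-128677316 for Cx3cr1, written 5′ to 3′ in the direction of transcription. Capitals mark matches on either strand to GAGGAA (core of the site of the myeloid factor PU.1), CAGAC (a short SMAD motif), TGANTCA (AP-1) or TATAAA (bound by the general transcription factor TBP).
Gpr34: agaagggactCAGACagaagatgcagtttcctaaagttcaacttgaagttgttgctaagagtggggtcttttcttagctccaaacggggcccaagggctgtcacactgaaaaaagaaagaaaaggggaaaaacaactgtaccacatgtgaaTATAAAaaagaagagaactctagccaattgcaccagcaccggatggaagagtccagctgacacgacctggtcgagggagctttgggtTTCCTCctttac
Cx3cr1: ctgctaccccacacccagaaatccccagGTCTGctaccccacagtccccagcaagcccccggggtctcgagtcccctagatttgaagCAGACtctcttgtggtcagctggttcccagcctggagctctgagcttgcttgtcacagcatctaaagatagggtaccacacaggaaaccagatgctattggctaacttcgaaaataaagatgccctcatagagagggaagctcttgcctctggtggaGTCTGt
The Gpr34 stretch held 1 match to GAGGAA, on the opposite strand 12 to 7 bases before the start, 1 to CAGAC and 1 to TATAAA. The Cx3cr1 stretch held 3 matches to CAGAC and none to the other motifs. Among the 5 markers in the table, GAGGAA was found for Gpr34 and Csf1r, CAGAC for these genes and Cx3cr1, TATAAA for Gpr34 alone and TGANTCA for none. Of 33469 promoters of the same length, 23.3% held GAGGAA, 42.9% CAGAC, 12.9% TATAAA and 6.34% TGANTCA. No match overlapped another.

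Among the LPS libraries, replicate 3 stood apart from the others. Its log2 CPM (counts scaled to 1000000 per library and normalised) correlated over genes at 0.935 with replicate 1 and 0.945 with replicate 2, which reached 0.983 with each other. It also held more counts of some markers of other cells, which were picked after their values were seen. Olig1, a transcription factor of the oligodendrocyte lineage, had 1, 5 and 515 counts in LPS replicates 1, 2 and 3, against 2, 3 and 17 in the LPS/siponimod libraries. Map2, a neuronal microtubule protein, had 0, 3 and 162 counts under LPS against 1, 1 and 115 under LPS/siponimod, so that both libraries numbered 3 held it. Summed over the marker lists described below, oligodendrocyte lineage markers were highest in LPS replicate 3 (36.0 CPM). Neuron markers were higher in LPS/siponimod replicate 3 (17.5 CPM) than in LPS replicate 3 (12.1 CPM). Astrocyte markers in LPS replicate 3 (22.5 CPM) were below those in LPS replicate 1 (42.6 CPM). The calls of the markers that change without LPS replicate 3 are given as well. The part of these cells in the results was not tested.

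Gpr34 had 20.7, 25.3 and 6.94 CPM in LPS replicates 1, 2 and 3 and 0.732, 2.89 and 0.317 CPM in LPS/siponimod replicates 1, 2 and 3. The lowest LPS library thus lay above the highest LPS/siponimod library. The mean fell from 17.7 ± 9.56 to 1.31 ± 1.38 CPM (SD, n = 3 each), with a log2 FC (base 2 logarithm of the fold change) of -3.74 (SE, the standard error, 0.92, adjusted p = 0.0297, quasi-likelihood test). In raw counts this was 767, 976 and 258 against 34, 129 and 13. Within the 3 pairs of same-numbered libraries the difference was -4.73, -3.11 and -4.26 on the log2 scale. Leaving out 1 library gave a log2 FC between -5.06 (LPS/siponimod replicate 2 omitted) and -3.28 (LPS/siponimod replicate 3 omitted), so that the size of the fold is loosely determined. The call was lost without LPS replicate 1 (adjusted p = 0.0772), LPS replicate 2 (0.101), LPS/siponimod replicate 1 (0.122) or LPS/siponimod replicate 3 (0.0715, all edgeR quasi-likelihood), and it held without either of the others.

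Cx3cr1 was counted 69, 202 and 35 times under LPS against 3, 21 and 4 times under LPS/siponimod. Both conditions were low, and the conditions did not overlap when scaled to library size (1.86, 5.24 and 0.942 against 0.0646, 0.470 and 0.0976 CPM). Its log2 FC was -3.65 (SE 1.00, adjusted p = 0.0392, quasi-likelihood test). LPS/siponimod replicate 1, at 3 counts, was at the floor of what these libraries can measure, so that the size of the fold is loosely determined. Within pairs the log2 differences were -4.07, -3.35 and -2.76. Its log2 FC was -5.01 without LPS/siponimod replicate 2 and -2.71 without LPS replicate 2. The same 4 omissions as for Gpr34 ended its call, at adjusted p-values of 0.0823, 0.147, 0.141 and 0.120 in that order, and so did dropping the filter on low counts (adjusted p = 0.0535, all edgeR quasi-likelihood).

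Aif1 was well counted in every library, with 29943, 36455 and 32624 counts under LPS against 8558, 17502 and 5645 under LPS/siponimod. The LPS libraries lay close together at 808, 946 and 878 CPM, while the LPS/siponimod libraries had 184, 392 and 138 CPM. The mean went from 878 ± 69.1 to 238 ± 135 CPM (mean ± SD, n = 3 each; log2 FC -1.88, SE 0.40, adjusted p = 0.0212, quasi-likelihood test). Without LPS replicate 1, LPS replicate 2, LPS/siponimod replicate 1 or LPS/siponimod replicate 3 its adjusted p was 0.0543, 0.0788, 0.0982 and 0.0579, so that it too was no longer called (edgeR quasi-likelihood), and without LPS/siponimod replicate 2 its log2 FC was -2.45. LPS/siponimod replicate 2 was the highest of its condition for Aif1, as it was for Gpr34, Cx3cr1, P2ry12, P2ry13, Csf1r and Tmem119.

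Sall1 had 6.05, 9.53 and 6.92 CPM with LPS and 14.6, 10.7 and 17.6 CPM with LPS/siponimod. Replicate 2 was the highest LPS library and the lowest LPS/siponimod library, and the conditions were separated by the small gap between these libraries. Over all libraries the log2 FC was 0.93 (SE 0.26, adjusted p = 0.0433, quasi-likelihood test), and within pairs it was 1.27, 0.17 and 1.34. This call was a narrow one. With a block for the replicate number the log2 FC was 0.93 with an adjusted p of 0.0553, and with upper-quartile scaling it was 0.89 with an adjusted p of 0.0522 (both edgeR quasi-likelihood). Of the fits that left out 1 library, it passed only without LPS/siponimod replicate 2 (log2 FC 1.10, quasi-likelihood adjusted p = 0.0344), and in the others its adjusted p lay between 0.0689 without LPS replicate 2 and 0.137 without LPS/siponimod replicate 1 (0.0763 without LPS replicate 3).

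**Figure D1:**
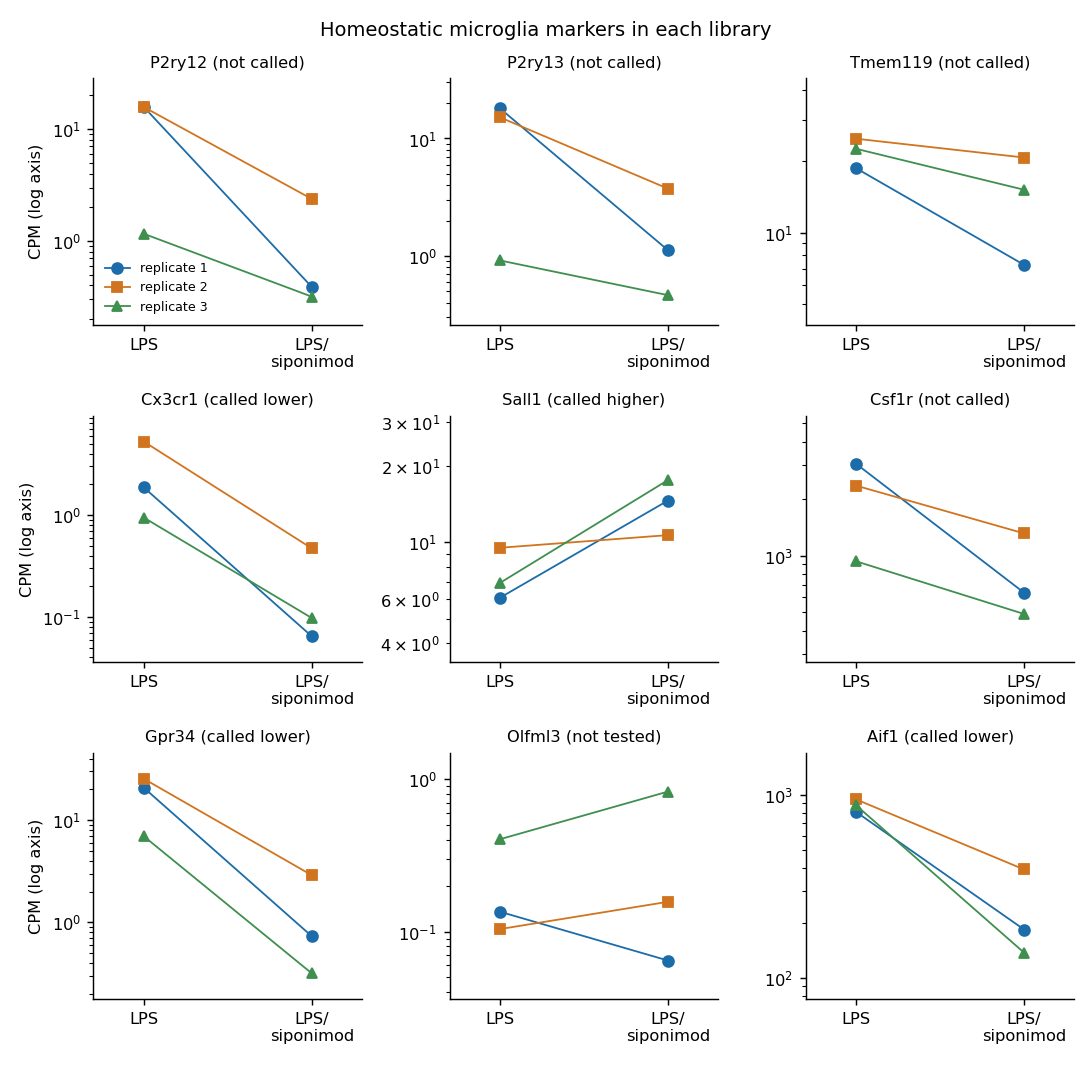
CPM of each of the 9 markers (vertical log axis, its range set for each gene) in the LPS and LPS/siponimod libraries, with a line joining the libraries of the same replicate number. Gpr34, Cx3cr1 and Aif1 are lower in every LPS/siponimod library than in any LPS library, Sall1 is higher, and LPS replicate 3 (green triangle) lies far below LPS replicates 1 and 2 for P2ry12 and P2ry13.

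The ADP receptor genes P2ry12 and P2ry13 had a common pattern. P2ry12 had 15.8, 15.8 and 1.16 CPM with LPS and 0.387, 2.37 and 0.317 CPM with LPS/siponimod. LPS replicate 3 was below LPS/siponimod replicate 2, so that the conditions overlapped through this library. Its log2 FC of -3.40 had a SE of 1.21 and an adjusted p of 0.0788 (quasi-likelihood test). For P2ry13 the values were 18.0, 15.1 and 0.915 CPM against 1.12, 3.74 and 0.463 CPM, and LPS replicate 3 lay below the LPS/siponimod replicates 1 and 2 (log2 FC -2.67, SE 1.18, adjusted p = 0.133, quasi-likelihood test). The highest LPS library exceeded the lowest 13.6-fold for P2ry12 and 19.7-fold for P2ry13, which is more than the fitted change of either gene. Without LPS replicate 3 both genes were called lower, at a log2 FC of -3.94 for P2ry12 (adjusted p = 0.0271) and -3.22 for P2ry13 (adjusted p = 0.0339, both edgeR quasi-likelihood). As this was the lowest LPS library for both genes, leaving it out raises their LPS mean. With both libraries numbered 3 left out, P2ry12 was not called (log2 FC -3.51, adjusted p = 0.0506). P2ry13 was called there (-2.77, adjusted p = 0.0451, both edgeR quasi-likelihood). Without LPS/siponimod replicate 2 the log2 FC was -4.95 for P2ry12 (adjusted p = 0.0509) and -3.84 for P2ry13 (adjusted p = 0.103, both edgeR quasi-likelihood), so that these folds too varied with the libraries included.

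Csf1r, the receptor on which microglial survival depends, was counted 113056, 90149 and 34614 times under LPS against 29533, 58416 and 20121 times under LPS/siponimod. In CPM these were 3051, 2340 and 932 against 636, 1309 and 491. LPS replicate 3 was again the lowest of its condition and fell below LPS/siponimod replicate 2. The log2 FC was -1.38 (SE 0.55, adjusted p = 0.106, quasi-likelihood test), with differences of -2.26, -0.84 and -0.92 within pairs. Without LPS replicate 3 it was -1.73 and Csf1r was called lower (quasi-likelihood adjusted p = 0.0374). With both libraries numbered 3 left out it was -1.47 and Csf1r was not called (quasi-likelihood adjusted p = 0.0783).

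Same-numbered libraries deviated together across genes, and adding the replicate number as a block to the fit changed the calls of 4 markers. P2ry12 (log2 FC -3.36, adjusted p = 0.0226), P2ry13 (-2.45, adjusted p = 0.0342) and Csf1r (-1.33, adjusted p = 0.0375) became lower calls, and Sall1 was no longer called. With Gpr34, Cx3cr1 and Aif1, 6 markers were then called lower by edgeR's quasi-likelihood test with the replicate block, where 16.4% of all genes were. DESeq2 called the same 6 markers lower, where it called 16.1% of all genes lower, and Sall1 higher.

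Tmem119 had 18.7, 24.9 and 22.6 CPM with LPS and 7.30, 20.8 and 15.2 CPM with LPS/siponimod. Only LPS/siponimod replicate 1 stood well below the LPS libraries, and the conditions overlapped. Its log2 FC of -0.62 (SE 0.37, adjusted p = 0.246, quasi-likelihood test) was the smallest of those fitted for the 8 markers tested, and with the replicate block it was -0.73 (adjusted p = 0.0705). Olfml3 was close to the floor, with 5, 4 and 15 counts under LPS against 3, 7 and 34 under LPS/siponimod. When the filter on low counts was dropped its log2 FC was 0.68 with a SE of 1.07 (edgeR quasi-likelihood adjusted p = 0.691), and it was not called.

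**Figure D2:**
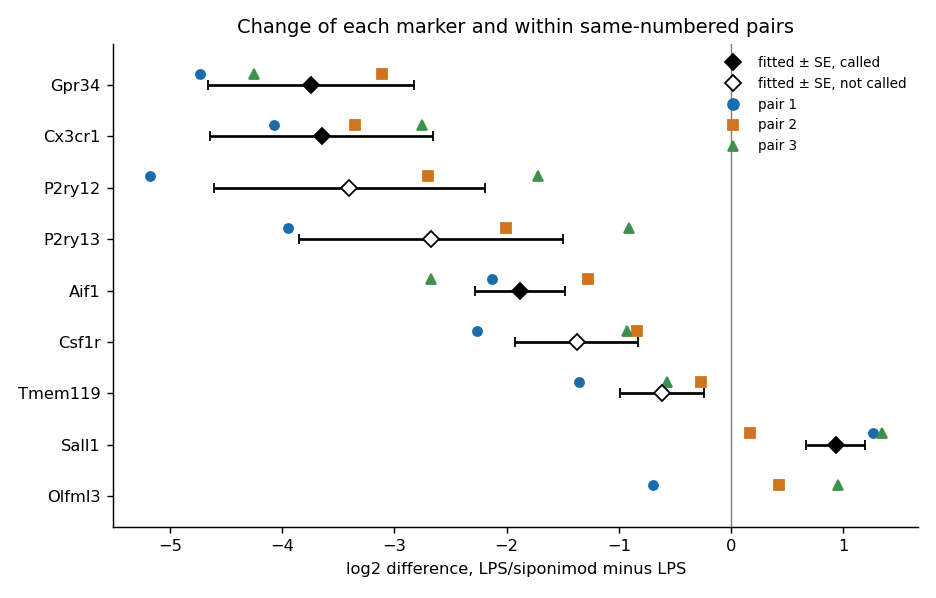
Fitted log2 FC of LPS/siponimod against LPS (diamonds, bars of 1 standard error on each side, filled where called) and log2 differences within each pair of same-numbered libraries (coloured points). The points lie left of 0 in all 3 pairs for 7 markers, right of 0 in all 3 for Sall1 and on both sides for Olfml3.

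The spread between libraries of a condition differed widely among the markers. On the log2 scale the SD among the LPS libraries was 2.14 for P2ry12 and 2.37 for P2ry13 but 0.11 for Aif1 and 0.21 for Tmem119. The median SD within conditions was 1.20 over the 9 markers, beside 0.28 over all genes tested. Over the 6 libraries, the genes whose log2 CPM followed the mean standardised profile of the 8 tested markers most closely were Stat5a, Glg1, Il16, Lpcat3 and Lhpp, with correlations of 0.997, 0.997, 0.997, 0.997 and 0.996. This profile contains both conditions and includes Sall1, which went the opposite way. Their log2 FC, whose sign follows from this choice, lay between -4.02 for Il16 and -0.64 for Stat5a, and none was called (edgeR quasi-likelihood adjusted p from 0.0712 to 0.0942). Il16 had 2, 45 and 4 counts in the LPS/siponimod libraries and passed the filter on low counts only through the LPS libraries.

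**Figure D3:**
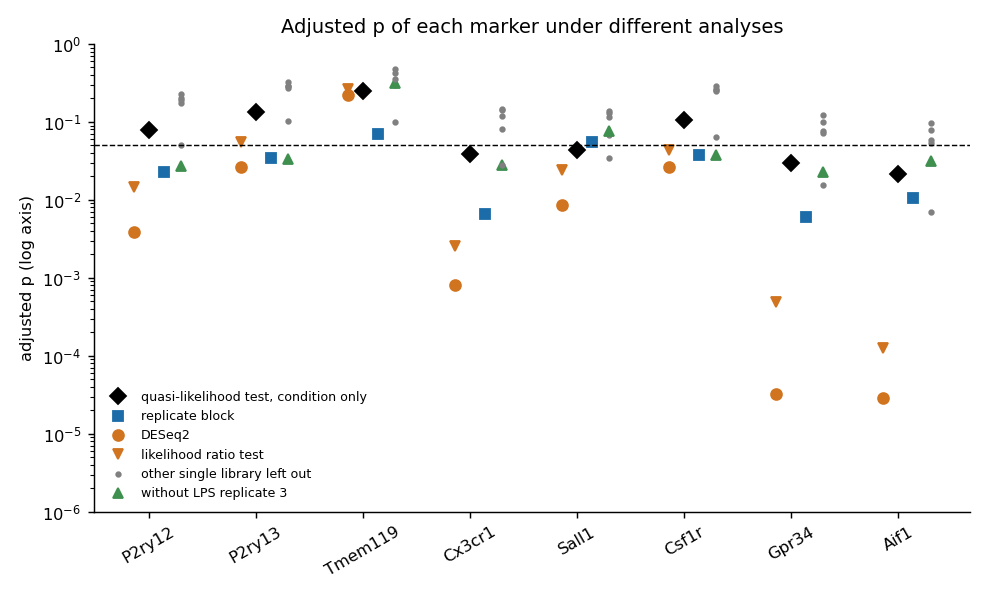
Adjusted p (vertical log axis, dashed line at 0.05) of the 8 tested markers by the quasi-likelihood test with the condition alone, with the replicate block, by DESeq2, by the likelihood ratio test and with single libraries left out. Without LPS replicate 3 (green triangles) P2ry12, P2ry13 and Csf1r pass below the line and Sall1 passes above it, while Tmem119 stays above it in all of these.

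Other genes assigned to homeostatic microglia were compared next, as a list of 30 of which 29 were listed and 24 tested. Of these 24, 7 were called lower and 0 higher by the quasi-likelihood test (where 11.7% and 13.6% of all genes were), with a median log2 FC of -0.83. At an unadjusted p under 0.05, 11 were lower and 3 higher, where 21.7% and 22% of all genes were. DESeq2 called 10 lower and 1 higher (where 16.1% and 16.5% of all genes were), the fit with the replicate block 12 and 1 (16.4% and 17.7%), and the fit without LPS replicate 3 called 10 and 0 (14.5% and 15.9%). Ecscr, a cell surface protein, fell from 3.32 ± 1.51 to 0.136 ± 0.0422 CPM (mean ± SD, n = 3 each; log2 FC -4.58, SE 0.55, quasi-likelihood adjusted p = 0.00668). It had 8, 4 and 6 counts in the LPS/siponimod libraries and passed the filter on low counts only through the LPS libraries. Bin1, a membrane-bending protein, had a log2 FC of -1.20 (SE 0.18, adjusted p = 0.00981, edgeR quasi-likelihood). P2ry6 (UDP receptor, log2 FC -2.62), Slco2b1 (organic anion transporter, -4.65) and Hpgds (prostaglandin D synthase, -2.49) were also called lower. P2ry6 was no longer called without LPS replicate 1, LPS replicate 2 or LPS/siponimod replicate 3 (log2 FC between -3.30 and -2.24 with 1 library left out), and Hpgds without LPS replicate 2, LPS/siponimod replicate 1 or LPS/siponimod replicate 3. The fructose transporter gene Slc2a5, with 55, 88 and 14 counts under LPS against 1, 12 and 2 under LPS/siponimod, likewise passed the filter only through the LPS libraries, and its call was lost with library totals alone, with limma-voom and with no filter, and in 4 of the 6 fits with 1 library left out. Siglech, Ltc4s, Upk1b and Crybb1 had at most 3 counts in every library. Without LPS replicate 2, 3 of 25 tested genes of this list were called lower, where 1.44% of all genes were. This was the fewest of the 6 fits with 1 library left out, and Bin1 was then no longer called (quasi-likelihood adjusted p = 0.0502).

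Of 20 general myeloid genes tested, 7 were called lower and 1 higher (where 11.7% and 13.6% of all genes were) and 12 were not called, with a median log2 FC of -0.58. Lcp1, an actin-bundling protein, fell from 1690 ± 83.8 to 677 ± 129 CPM (mean ± SD, n = 3 each; log2 FC -1.32, SE 0.20, quasi-likelihood adjusted p = 0.00932). Itgam, which encodes the CD11b by which the cells were selected, had a log2 FC of -0.87 (adjusted p = 0.0112), and Hcls1, a cortactin-like protein, went from 1344 to 671 CPM (adjusted p = 0.0141, both edgeR quasi-likelihood). The inhibitory Fc receptor gene Fcgr2b was 4.39-fold higher (quasi-likelihood adjusted p = 0.0145). Fcgr2b, Itgam and Hcls1 were no longer called without LPS replicate 2, and Itgam and Hcls1 also without LPS/siponimod replicate 1 or LPS/siponimod replicate 3. Ptprc, the leukocyte common antigen, had 526 CPM with LPS and 519 CPM with LPS/siponimod (log2 FC -0.02, SE 0.24, quasi-likelihood adjusted p = 0.96). Between 1 and 9 genes of the list were called lower when 1 library was left out. It was 1 each without LPS replicate 2, LPS/siponimod replicate 1 or LPS/siponimod replicate 3, where 1.44%, 1.52% and 2.24% of all genes were lower. It was 9 without LPS/siponimod replicate 2 (11.6% of all genes).

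On the ligand side, Csf1 rose from 20.8 ± 10.3 to 274 ± 145 CPM (mean ± SD, n = 3 each; log2 FC 3.72, SE 0.59, adjusted p = 0.0105, quasi-likelihood test), the opposite direction to its receptor gene. Its counts were 1211, 564 and 555 under LPS against 18233, 5036 and 12970 under LPS/siponimod, and without LPS replicate 2 its adjusted p was 0.0561. Il34, the other ligand of CSF1R, had at most 1 count in any library. Cx3cl1, the CX3CR1 ligand, had 1, 8 and 110 counts under LPS against 1, 6 and 10 under LPS/siponimod and was not tested. Among 18 tested genes of CSF1 receptor signalling, 6 were called lower and 3 higher (where 11.7% and 13.6% of all genes were), with a median log2 FC of -0.54. Stat3 (transcription factor, log2 FC -0.91), Grb2 (adaptor, -1.07) and Inpp5d (inositol phosphatase, -1.03) had the smallest adjusted p among the lower genes, and besides Csf1 the adaptors Gab2 (1.18) and Sh2b3 (0.64) were higher. The call of Gab2 was lost in 3 of the 6 fits with 1 library left out (adjusted p up to 0.0698), and that of Sh2b3 in 5 of them (up to 0.145), with upper-quartile factors and with no filter (edgeR quasi-likelihood). Of 16 tested genes of fractalkine and purine receptor signalling, 6 were lower and 1 higher (against the same shares of all genes), with a median log2 FC of -0.61. The ectonucleotidase Nt5e (log2 FC -1.47), P2ry6 and the G protein subunit Gnai2 (-0.82) were the lower genes with the smallest p-values, and Rgs1, a regulator of G protein signalling, was the higher one (4.07, SE 0.83, quasi-likelihood adjusted p = 0.0185). The calls of Rgs1, Grb2, Inpp5d and Gnai2 were lost without LPS replicate 1, LPS replicate 2, LPS/siponimod replicate 1 or LPS/siponimod replicate 3 (adjusted p of Rgs1 up to 0.0716, edgeR quasi-likelihood). The log2 FC of Rgs1 lay between 3.64 and 4.94 with 1 library left out. Without LPS replicate 2, and likewise without LPS replicate 1 or LPS/siponimod replicate 3, 1 lower gene was left in each of these 2 signalling lists. The shares of all genes lower in these fits were 1.44%, 5.13% and 2.24%. For CSF1 receptor signalling 1 was also left without LPS/siponimod replicate 1 (1.52% of all genes). With the replicate block 9 genes of CSF1 receptor signalling and 8 of fractalkine and purine receptor signalling were lower (16.4% of all genes), and 3 and 1 were higher (17.7%).

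Of 23 tested genes of the TGF-beta axis and of microglial identity, 3 were called higher and 3 lower, close to the shares of all genes (13.6% and 11.7%), with a median log2 FC of -0.27. With the replicate block 5 were higher and 6 lower, where 17.7% and 16.4% of all genes were. The signal transducers Smad4 (log2 FC 0.79, adjusted p = 0.0096) and Smad3 (1.12, adjusted p = 0.039) and the integrin Itgav (1.26, adjusted p = 0.012, all edgeR quasi-likelihood) were higher. Nrros, which anchors latent TGF-beta on microglia, was lower (log2 FC -1.15, quasi-likelihood adjusted p = 0.0187), as were the transcription factors Maf (-1.58) and Etv5 (-1.63). Spi1, which encodes PU.1, had 489 ± 14.7 CPM with LPS and 349 ± 73.3 CPM with LPS/siponimod and was not called (± SD, n = 3 each; log2 FC -0.49, SE 0.19, quasi-likelihood adjusted p = 0.097). Irf8 (log2 FC -1.81, adjusted p = 0.0679) and Mef2c (-0.86, adjusted p = 0.191) were not called by the quasi-likelihood test. With the replicate block Irf8 (adjusted p = 0.0133) and Mef2c (adjusted p = 0.0375) were, and Irf8 was also called without LPS replicate 3. Tgfb1 (log2 FC -0.27), Tgfbr2 (-0.42) and Tgfbr1 (0.55) were not called either, the last at a quasi-likelihood adjusted p of 0.0507. In this list 0 genes were called lower without LPS replicate 1, LPS replicate 2, LPS/siponimod replicate 1 or LPS/siponimod replicate 3 (edgeR quasi-likelihood). The shares of all genes lower in these fits were 5.13%, 1.44%, 1.52% and 2.24%. With all libraries 7 had a negative log2 FC at an unadjusted p under 0.05 (21.7% of all genes), and DESeq2 called 5 lower (16.1%). Smad3 was called in none of the 6 fits with 1 library left out (quasi-likelihood adjusted p up to 0.141). Smad4 and Itgav lost their calls without LPS replicate 2, Nrros and Maf without any 1 of the 4 libraries just named, and Etv5 without any 1 library other than LPS replicate 3.

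**Figure D4:**
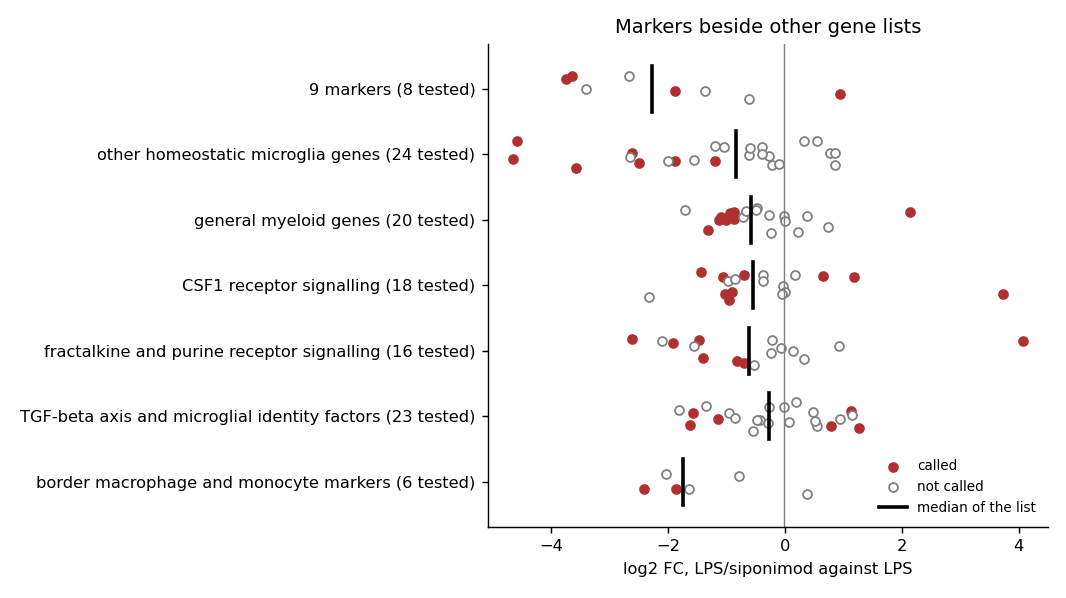
Log2 FC of LPS/siponimod against LPS for each tested gene of the 9 markers and of 6 other lists (points, filled where called; thick lines are medians, the thin grey line is the median of all genes). The medians are -2.28 for the tested markers, -0.83 for other homeostatic genes and -0.58 for general myeloid genes, and each list holds genes on both sides of 0.

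Markers of other cells were looked at in the same libraries. Of 6 border macrophage and monocyte markers tested, 2 were called lower, Mrc1 (mannose receptor, log2 FC -2.41, adjusted p = 0.0054) and Ms4a7 (log2 FC -1.87, adjusted p = 0.00779, both edgeR quasi-likelihood), and 4 were not (11.7% of all genes were lower). With the replicate block 5 were called lower (16.4% of all genes), and without LPS replicate 3 likewise 5 of 7 tested (14.5%). The platelet factor gene Pf4 had a positive log2 FC (0.38, quasi-likelihood adjusted p = 0.48). The summed level of the list was 3426, 2377 and 1409 CPM in LPS replicates 1, 2 and 3 and 988, 1155 and 808 CPM in LPS/siponimod replicates 1, 2 and 3, Siglec1 being the most abundant, and Cd163 and Ccr2 had at most 3 counts in any library. The endothelial list, whose most abundant gene was the cadherin Cdh5, had a summed level of 168, 215 and 93.7 CPM against 39.7, 84.4 and 28.4 CPM. Flt1 was its only called gene of 5 tested (lower, log2 FC -2.06, quasi-likelihood adjusted p = 0.00913), where 11.7% of all genes were lower, 3 being lower with the replicate block (16.4% of all genes), while the endothelial genes Kdr and Emcn were at 0 throughout. Oligodendrocyte lineage markers summed to 5.34, 5.37 and 36.0 CPM with LPS and 11.4, 10.3 and 22.6 CPM with LPS/siponimod, with Mbp the most abundant and the only called gene of 3 tested (higher, log2 FC 1.74, where 13.6% of all genes were higher), and Mog had at most 1 count. Mbp was no longer called without LPS replicate 2, LPS/siponimod replicate 1 or LPS/siponimod replicate 3 (quasi-likelihood adjusted p up to 0.0623). Astrocyte markers summed to 42.6, 21.0 and 22.5 CPM with LPS and 27.5, 26.9 and 57.9 CPM with LPS/siponimod, most of it from the glutamate transporter Slc1a3, and 0 of 3 tested were called by edgeR's quasi-likelihood test, by DESeq2 or with the replicate block (0 at an unadjusted p under 0.05). The sum was highest in LPS/siponimod replicate 3. Gfap, unlike the sum, was highest in LPS replicate 3, with 1, 2 and 88 counts under LPS against 0, 0 and 1 under LPS/siponimod.

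The remaining lists are given beside the 13.6% of all genes called higher and the 11.7% called lower (25.3% in either direction). Neuron markers summed to between 2.31 and 17.5 CPM, Tubb3 being the most abundant, and 1 of 3 tested was higher (Snap25, with 0, 1 and 1 counts under LPS against 94, 153 and 81 under LPS/siponimod). Without LPS replicate 3, 2 were higher, Tubb3 among them (15.9% of all genes), and 1 lower (14.5%). Of 5 fibroblast and mural genes tested, 1 was higher (Dcn, the most abundant of them, with 3, 0 and 4 against 456, 49 and 178 counts). Snap25 and Dcn passed the filter only through the LPS/siponimod libraries, and the call of Dcn was lost with limma-voom, without LPS replicate 1, LPS replicate 2 or LPS/siponimod replicate 1, and with both libraries numbered 3 left out. Of 8 lymphocyte markers, 7 had at most 3 counts in every library, and the eighth was Cd79b, with 593, 2343 and 1145 counts under LPS against 38, 980 and 40 under LPS/siponimod. Cd79b was not called (log2 FC -2.18, and between -5.33 and -1.55 with 1 library left out). It was called lower with the replicate block (log2 FC -3.49, quasi-likelihood adjusted p = 0.0266) and without LPS/siponimod replicate 2. Of 8 proliferation markers 1 was called, the replication clamp gene Pcna, which was higher and the most abundant of them (log2 FC 1.59, quasi-likelihood adjusted p = 0.0116). Pcna lost its call without LPS replicate 2. The log2 FC was negative for 6 of the 8 (51.2% of all genes), with a median of -0.86. With the replicate block 2 were called lower (16.4% of all genes), Top2a among them (log2 FC -2.91, quasi-likelihood adjusted p = 0.00614), and 1 higher (17.7%). DESeq2 also called 2 lower (16.1%) and 1 higher (16.5%). Of 7 reference genes tested, Hprt1 (log2 FC -1.44) and Actb (-2.31, the most abundant) were called lower, and Gapdh went from 3955 ± 560 under LPS to 2790 ± 119 CPM under LPS/siponimod (± SD, 3 libraries each; log2 FC -0.50, quasi-likelihood adjusted p = 0.099). Hprt1 and Actb were no longer called without LPS replicate 2 or LPS/siponimod replicate 1, nor was Actb without LPS/siponimod replicate 3. The log2 FC of Actb lay between -2.92 and -2.04 with 1 library left out. The part of other cells in the levels of the homeostatic markers was not tested.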

How the data were processed

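The authors converted and demultiplexed single-end reads with bcl2fastq (2.20.0.422), trimmed and mapped them to the rat genome (mRatBN7.2) in the CLC Genomics Workbench, and deposited 1 table of raw total read counts per gene for each of 6 libraries. How they treated strand, introns and reads matching several genes is not given in the sources used here. In 1 table, 1 row without a name or value was left out.

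Counts were normalised by TMM (factors 0.939 to 1.056) and filtered with filterByExpr (minimum count 10, minimum total 15) in edgeR 4.0.16 (R 4.3.3), and 11977 genes were tested with the quasi-likelihood test, adjusted after Benjamini and Hochberg. The standard error is the log2 FC divided by the square root of F. Pair differences use log2 CPM with a prior count of 2. With 3 libraries against 3, an exact permutation test of 1 gene cannot go below p = 0.1. Alternatives used limma 3.58.1 and DESeq2 1.42.0.

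Markers, gene lists and tests were chosen with earlier results of these data known. Besides the markers, named genes were up to 3 called genes per list and direction with the smallest adjusted p, ligands and identity factors fixed by name, the most abundant gene of each list of other cells, and the 5 genes most alike in pattern. Ptprc, Olig1, Map2, Gfap, Pf4, Slc2a5, Slco2b1, Hpgds, genes at the floor and the lone Cd79b were chosen after their values were seen. Some genes stand in more than 1 list. Some genes that the rule names are not reported here. After centring on condition means, same-numbered libraries correlated over genes at 0.42, 0.545 and 0.611, and those of different numbers between -0.534 and 0.0856, so that the numbers were taken to pair the libraries, from the data and not from a statement of the authors.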

Additional observations from a re-analysis of the deposited data

How the results depend on the processing

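All 8 tested markers kept their direction in each of the 18 alternatives, of which the 3 that left out both libraries numbered 3 or combined the replicate block with another change were chosen after seeing the data. The number of markers called lower is given with the share of all genes called lower in brackets. It was 3 by the quasi-likelihood test (11.7%), 6 with DESeq2 (16.1%), 5 with the likelihood ratio test (14.5%), 6 with the replicate block (16.4%), 7 with the replicate block and the likelihood ratio test (19.2%), and 5 with the replicate block and both libraries numbered 3 left out (15.2%). It was 2 with no filter (6.53%), where Cx3cr1 was not called, and 2 with both libraries numbered 3 left out (8.17%), where Gpr34 and P2ry13 were called and Cx3cr1 (adjusted p = 0.063) and Aif1 (0.0595) were not (edgeR quasi-likelihood). With single libraries left out it ranged from 0 to 6, being 0 without LPS replicate 1, LPS replicate 2, LPS/siponimod replicate 1 or LPS/siponimod replicate 3 (quasi-likelihood test; between 1.44% and 5.13% of all genes called lower; at an unadjusted p under 0.05, 3 markers and between 13.7% and 17.5% of all genes lower in each of these 4 fits), and 6 without LPS replicate 3 (14.5%). Sall1, the 1 marker called higher, was not called (0 markers higher) with upper-quartile factors, with no filter, with the replicate block, with both libraries numbered 3 left out, or with the block and those libraries left out, and the number ranged from 0 to 1 with single libraries left out. Over all genes, 3036 were called, 4679 with the replicate block and the likelihood ratio test, and between 651 (without LPS replicate 2) and 3713 (without LPS replicate 3) with 1 library left out. The fits with fewer libraries have fewer residual degrees of freedom. Upper-quartile factors and library totals shifted the median log2 FC of all genes from -0.02 to -0.07 and 0.06, and moved the split of all calls from 1403 lower and 1633 higher to 1643 and 1486 and to 1114 and 1858. Of the genes named from the other lists, Csf1, Bin1, Fcgr2b, Smad4, Itgav and Pcna were among those whose call was lost without LPS replicate 2, and Mrc1, Ms4a7, Stat3, Nt5e, Lcp1, Ecscr, Slco2b1, Flt1 and Snap25 were called in each of the 6 fits with 1 library left out. For Cx3cr1 and Olfml3, which are near the floor, 3 counts correspond to between 0.0646 and 0.081 CPM, which covers counting error only.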
